A study of Drosophila melanogaster with 596 samples.

Results

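Crosses with a high expression score of timeless (tim, CG3234) were compared with crosses with a low score, in heads of Drosophila melanogaster females. All 596 crosses of the series were ranked by the score of timeless. The 25% of crosses with the highest scores (the high timeless crosses) were set against the 25% with the lowest scores (the low timeless crosses), which left the other 50% between them. The groups were chosen by the measured score of timeless itself, so its values are given as a description and were not tested. Each cross joined a recombinant inbred line (RIL) of population pA with a line of population pB of the Drosophila Synthetic Population Resource, either pA1 by pB2 (63.4% of the crosses) or pA2 by pB1 (36.6%). The progeny were trans-heterozygous females, very likely mated, aged 3 to 5 days, and about 300 heads were pooled for each cross. No cross differed from another by a treatment, and the time of day at which heads were frozen is not given in the sources used here. Each cross was measured once and has no replicate in these values, so every error below is over crosses. An array held several crosses, and which crosses shared one is not given in the sources used here, so that a part of shared arrays in the results was not tested.

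The circadian clock of the fly is a transcriptional feedback loop. The activators CLOCK and CYCLE drive transcription of period and timeless, and the PERIOD and TIMELESS proteins return to the nucleus and hold back their own activators. Another loop runs through Pdp1 and vrille, which act on the Clk gene, and clockwork orange (cwo) represses many of the same targets. In the head, the loop runs in brain clock neurons, in glia and in the photoreceptors of the compound eye, so that whole-head RNA contains several oscillating cell populations.

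The values are scores without a physical unit. Each of the 11064 rows had been set to normal quantiles over the crosses by the authors, so that every row spans about the same range (SD 0.983 to 1.01) and a score says where a cross stands among the crosses and not how much RNA it holds. The tissue could therefore not be checked by the level of head markers. Rows with identical values were entered once, as 1 profile, which gave 9007 profiles besides timeless. The high and low timeless crosses had similar shares of pA1xpB2 (63.1% and 64.4%). The authors had regressed the subpopulation out of every row, that of timeless included, so this balance is no separate finding. The median over all profiles of a cross ran from -0.28 to 0.63 in the high and from -0.23 to 0.16 in the low timeless crosses. Line numbers were higher in the high than in the low timeless crosses, and over 20 blocks of adjacent line numbers the share of high timeless crosses ran from 9.09% to 50%.

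The high timeless crosses had timeless scores from 0.68 to 3.15, with a median of 1.15, and the low timeless crosses had scores from -3.15 to -0.68, with a median of -1.16. The last cross taken as high had 0.678 and the next below it 0.673. At the other end, the first low timeless cross had -0.684 and the next above it -0.678. The groups are therefore cut from a continuous range, and crosses on either side of a limit hardly differed.

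Between these groups, 634 profiles were higher and 576 were lower in the high timeless crosses at an adjusted p under 0.05 (limma on the scores, two-sided, Benjamini-Hochberg over 9007 profiles), which is 7.04% and 6.40% of all profiles and 13.4% in either direction. Of 7247 genes, 7.13% had a higher and 6.25% had a lower profile. Most differences were small: the median absolute difference was 0.41 among the higher and 0.40 among the lower profiles, against 2.55 for timeless itself. An absolute difference of at least 1 was reached by 38 higher profiles of 24 genes and by 15 lower profiles of 14 genes. All differences below are the mean of the high minus the mean of the low timeless crosses in score units, with the standard error computed from the spread of each profile within the groups (n = 25% of the 596 crosses in each group). A difference of 2 means that the groups' means lie 2 SD of a profile apart.

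Genes of the feedback loop showed some of the largest differences, with per, cwo and Pdp1 high and Clk low in the high timeless crosses. Among 29 profiles of the core clock and its kinases, 13 were higher (44.8%) and 1 was lower (3.45%), beside 7.04% and 6.40% of all profiles. The median difference was 0.27, beside -0.0037 for all profiles. The 13 higher profiles came from only 4 genes: 10 were of Pdp1 and the others were single profiles of per, cwo and tws.

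For per, which encodes the dimerization partner of TIMELESS, scores in the high timeless crosses ran from -1.14 to 3.15 with a median of 0.89. In the low timeless crosses they ran from -3.15 to 0.36 with a median of -1.02. The ranges overlapped at their ends, but no low timeless cross lay above the median of the high ones, and 1 high timeless cross lay below the median of the low ones. The difference was 1.95 ± 0.09 (SE; adjusted p = 6.20e-61), with 1.86 in the pA1xpB2 and 2.11 in the pA2xpB1 crosses.

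For Clk, which encodes the activator of per and tim, scores ran from -2.81 to 0.54 (median -0.96) in the high and from -1.87 to 3.15 (median 0.88) in the low timeless crosses. Only 4.03% of the high timeless crosses had a Clk score above 0, against 86.6% of the low ones. Its difference of -1.93 ± 0.09 (SE; adjusted p = 1.32e-59) was the largest in the lower direction among all profiles. The partner of Clk in the activator, cyc, was not called (0.09 ± 0.12, adjusted p = 0.656), and its ranges, -2.81 to 2.53 in the high and -2.36 to 2.81 in the low timeless crosses, almost coincided.

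Pdp1, an activator of Clk transcription in one of its isoforms, was represented by 10 distinct profiles, all of which were higher, with differences from 1.30 to 1.96. The profile of transcript PJ ran from -1.34 to 3.15 (median 1.02) in the high and from -2.81 to 1.10 (median -0.86) in the low timeless crosses. It differed by 1.96 ± 0.08 (SE; adjusted p = 3.56e-61), followed by transcript PD with 1.89 ± 0.09. The remaining 8 Pdp1 profiles lay between 1.30 and 1.53. Transcripts of a gene can share probes, so these profiles are not separate evidence.

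The score of cwo, a basic helix-loop-helix repressor of clock targets, ran from -1.64 to 3.15 (median 0.85) in the high and from -3.15 to 1.46 (median -0.64) in the low timeless crosses. The difference was 1.49 ± 0.10 (SE; adjusted p = 1.85e-35), and 6 low timeless crosses lay above the median of the high ones. The genes vri, cry and jet were not analysed here.

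**Figure D1:**
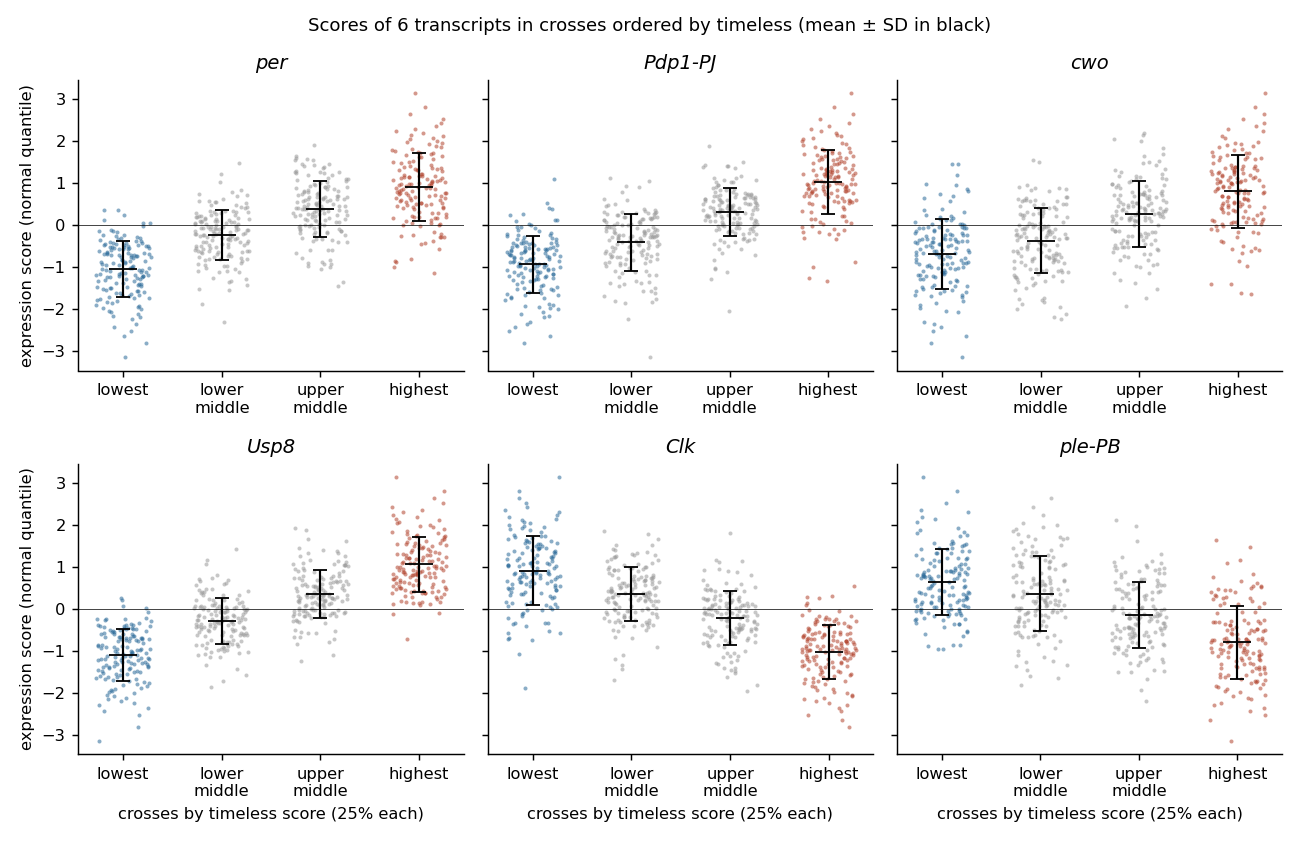
Scores (vertical axis, normal quantile) of per, Pdp1-PJ, cwo, Usp8, Clk and ple-PB in each of the 596 crosses, which are split by timeless into bins of 25% of the crosses each (horizontal axis). The black bars are the mean and SD of a bin. The means of per went from -1.05 in the lowest bin through -0.24 and 0.39 to 0.90 in the highest, and those of Clk ran the other way, from 0.91 to -1.02.

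The enzymes that act on PERIOD and TIMELESS proteins were mostly not called. The casein kinase dco (doubletime) differed by 0.04 ± 0.12 (adjusted p = 0.882), and the most different of the 6 profiles of sgg, the fly GSK-3, by 0.30 ± 0.11 (adjusted p = 0.065). Both subunits of casein kinase 2 were among those not called, with 0.20 ± 0.12 for CkIIalpha and at most 0.14 ± 0.11 for CkIIbeta. So were the kinase nmo (0.08 ± 0.12) and the F-box gene slmb (-0.10 ± 0.12). Of the protein phosphatase 2A subunits, the regulatory subunit tws was higher (0.50 ± 0.12, adjusted p = 4.32e-04), whereas the catalytic subunit mts (-0.22 ± 0.12, adjusted p = 0.204) and the regulatory subunit wdb (-0.0004 ± 0.12, adjusted p = 0.999) were not called. For tws, 45 low timeless crosses still lay above the median of the high ones, so that its groups were far more mixed than those of per or Clk. The 95% interval of the dco difference ran from -0.20 to 0.27, which leaves out differences of the size seen for per.

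The combination of the scores of per, cwo, Pdp1-PJ and Clk differed from bin to bin of the crosses. In 66.4% of the high timeless crosses, per, cwo and Pdp1-PJ were all above 0 and Clk was below 0. The share was 30.2% in the upper middle bin, 1.34% in the lower middle bin and 0 in the low timeless crosses. The opposite state, with Clk above 0 and the other genes below 0, was found in 0, 2.01%, 26.8% and 63.8% of the crosses of the same bins. A count of 0 in a bin allows a share of up to 2.01%. The scores of per, cwo, Pdp1-PJ and Clk in a cross come from the same array as its timeless score. Taken singly, per was above 0 in 88.6% of the high timeless crosses, cwo in 85.2%, Pdp1-PJ in 90.6% and Clk in 4.03%. In the low timeless crosses these shares were 4.03%, 16.8%, 6.71% and 86.6%. Whether the joint shares exceed what such single shares give was not tested.

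Outside the core loop, the largest differences were found in a small set of genes that stood close to per and Pdp1 in size. Usp8, a ubiquitin-specific protease of the endosomal pathway, had the largest difference of all (2.16 ± 0.07, adjusted p = 3.47e-74). Its scores ran from -0.70 to 3.15 (median 0.97) in the high and from -3.15 to 0.26 (median -1.07) in the low timeless crosses. No cross of either group lay past the median of the other group, and 98% of the high timeless crosses but 2.68% of the low ones were above 0.

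Slob encodes a protein that binds the calcium-activated potassium channel Slowpoke. Its profile of transcripts PA to PE ran from -0.75 to 3.15 (median 1.09) in the high and from -3.15 to 0.60 (median -1.03) in the low timeless crosses, a difference of 2.15 ± 0.08 (SE; adjusted p = 4.85e-74). The other 3 Slob profiles differed by 2.10, 2.09 and 1.75. The channel gene slo was not called in either of its profiles, at -0.03 ± 0.11 and -0.18 ± 0.11.

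The RING-finger gene goliath (gol) differed by 2.11 ± 0.08 (SE; adjusted p = 5.65e-71) in one profile and by 2.02 ± 0.09 in the other. In the high timeless crosses the first of these ran from -1.87 to 3.15 (median 1.05), and in the low ones from -3.15 to 0.40 (median -1.02). CG2681 followed with 1.80 ± 0.09, with 86.6% of the high and 7.38% of the low timeless crosses above 0.

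The other 6 of the 12 largest higher differences were those of the nuclear pore gene Gp210 (1.73 ± 0.09), the protein kinase gene Dyrk2 (1.72 ± 0.10), Sidpn, which encodes a basic helix-loop-helix protein (1.69 ± 0.09), mdu (1.68 ± 0.09), CG46385 (1.65 ± 0.09) and Prosap, the fly Shank scaffold of synapses (1.54 ± 0.10). Single crosses went far against the group in some of them. The lowest Dyrk2 score of the whole series (-3.15) was in a high timeless cross, and the highest mdu score (3.15) was in a low timeless cross. In all 6, from 0 to 3 low timeless crosses lay above the median of the high ones.

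The lower direction had fewer large differences, and after Clk they were smaller. The profile ple-PB of pale, which encodes tyrosine hydroxylase, the enzyme of the rate-limiting step of dopamine synthesis, differed by -1.43 ± 0.10 (adjusted p = 1.20e-32). Its scores ran from -3.15 to 1.64 (median -0.82) in the high and from -0.96 to 3.15 (median 0.57) in the low timeless crosses. Of the high timeless crosses 19.5% had a ple-PB score above 0, and of the low ones 77.9%. The other pale profile, PA, differed by -1.34 ± 0.10.

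CG34134 differed by -1.41 ± 0.10, and the kinesin gene Klp98A by -1.27 ± 0.11, with 9 low timeless crosses below the Klp98A median of the high ones. The cytochrome P450 gene Cyp6a21 differed by -1.22 ± 0.11 and the zeta-class glutathione transferase GstZ2 by -1.08 ± 0.12. The other 6 of the 12 largest lower differences lay between -1.06 and -1.02. They belong to CG10513, CG32369, pinta, which encodes a retinoid-binding protein used in making visual pigment, CG13305, CG12991 and CG8419. In these 6 the groups were more mixed, with 15 to 24 low timeless crosses below the median of the high ones.

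**Figure D2:**
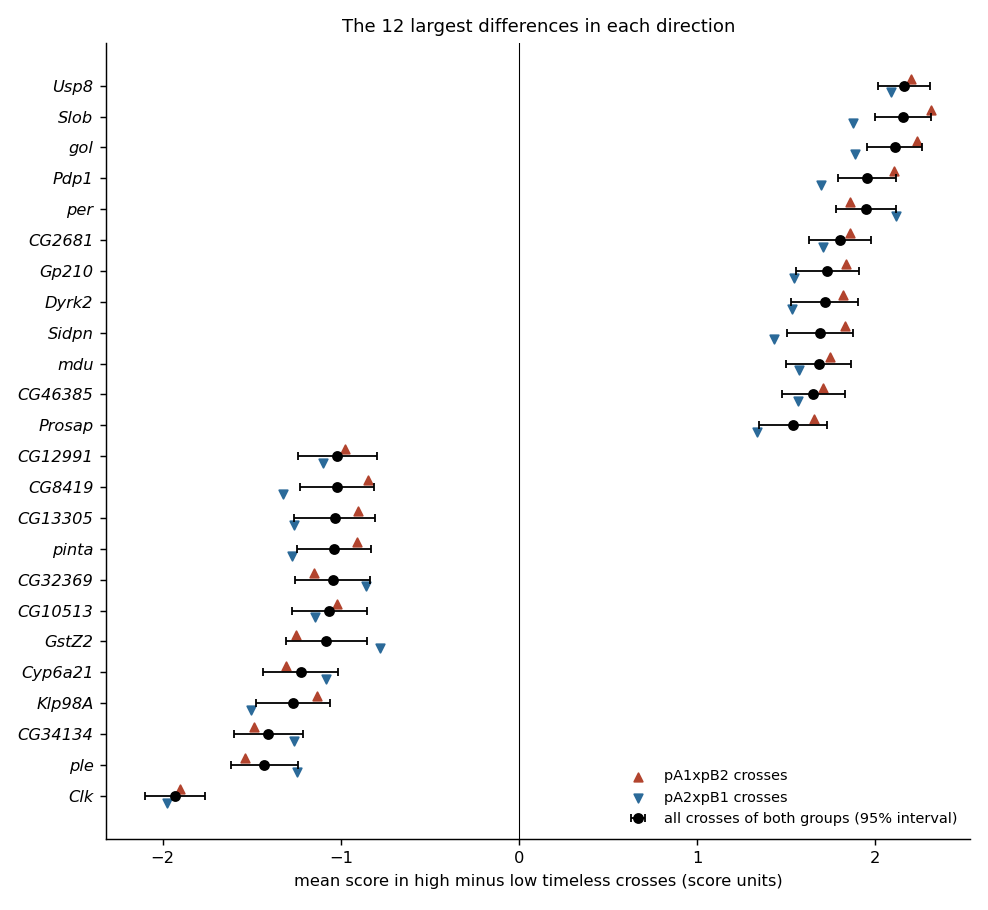
Mean score in high minus low timeless crosses (horizontal axis, score units) for the 12 genes with the largest difference in each direction (vertical axis), with the 95% interval in black and the pA1xpB2 and pA2xpB1 crosses as triangles. Differences ran from 1.54 to 2.16 on the higher side and from -1.93 to -1.02 on the lower side. Genes were taken only where both kinds of cross had the same sign, so that agreement was set by the choice.

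Further genes with an absolute difference of at least 1 are named here because of their values. On the higher side these were CG8468 (1.35 ± 0.10), Pdk1, the kinase that activates Akt (1.31 ± 0.10), js (1.21 ± 0.10) and Gclm, the modifier subunit of the enzyme that starts glutathione synthesis (1.18 ± 0.11). To these came rdgC, the phosphatase of rhodopsin (1.15 ± 0.11), the apical polarity gene crb (1.15 ± 0.11), the guanine nucleotide exchange factor gene Exn (1.09 ± 0.10), the forkhead gene Crg-1 (1.07 ± 0.11), CG14855 (1.06 ± 0.11), Hydr2 (1.01 ± 0.11) and Fbxl4 (1.0 ± 0.11). On the lower side they were Sin1, a component of the TORC2 kinase complex (-1.02 ± 0.10), and the acyl-CoA synthetase gene Acsx3 (-1.0 ± 0.11). The gene t (tan), whose enzyme releases histamine and dopamine from their beta-alanyl conjugates, came just short of that size (-0.96 ± 0.11).

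The direction was shared by both kinds of cross. Of the 634 higher profiles, 621 had the same sign in the pA1xpB2 and the pA2xpB1 crosses, and of the 576 lower profiles 566 did. The same crosses had also made these calls, so the counts are a description. Taken alone, with fewer crosses, both kinds reached an adjusted p under 0.05 for 87 of the higher and 79 of the lower profiles. The difference between the kinds was tested as an interaction in limma. At an adjusted p under 0.05 it was called for 0 of 9007 profiles, with 767 (8.52%) at an unadjusted p under 0.05 and a smallest adjusted p of 0.146. For GstZ2 the values were -1.25 in pA1xpB2 and -0.78 in pA2xpB1, and for CG14855 they were 1.31 and 0.61.

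The direction was also followed over the line numbers, because the high and low timeless crosses were unevenly spread over them. Within all 20 blocks of adjacent line numbers, the difference had the same sign as the whole for Usp8, Slob-PA to PE, gol-PB/PD, Pdp1-PJ, per, Clk, CG2681, Gp210, Dyrk2, Sidpn, mdu, Prosap and cwo. The same held for CG8468 on the higher side and for CG34134, Klp98A, CG32369, Sin1 and Acsx3 on the lower side. The difference had that sign in 18 blocks for ple-PB and in 19 for Cyp6a21. Among the genes with an absolute difference of at least 1, it had that sign in the fewest blocks for CG14855 (16), pinta (17) and Crg-1 (17). The blocks are parts of the crosses that made the calls, so these counts are a description. A block held as few as 2 high or 1 low timeless crosses. With the blocks as a covariate, 557 profiles were higher and 522 were lower. What else than timeless changed with the line numbers was not tested.

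The 50% of crosses between the groups did not enter the comparison of the extremes, so they give the relation to timeless in other crosses. Over these crosses limma called a rising slope on the timeless score for 39 profiles (0.433%) of 23 genes and a falling slope for 13 profiles (0.144%) of 12 genes, 0.577% of all profiles in either direction. Of the 39, 37 were also higher in the high timeless crosses, which is 94.9% of the rising slopes and 5.84% of the 634 higher profiles. Of the 13, 11 were also lower, which is 84.6% of the falling slopes and 1.91% of the 576 lower profiles. The middle crosses span a short range of timeless, from -0.68 to 0.67, and a slope there has a standard error of 0.15 score units per unit of timeless.

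The steepest slope in the middle crosses was that of Pdp1-PJ (1.04 ± 0.15, adjusted p = 7.10e-08). It was followed by Pdp1-PD (1.02, adjusted p = 1.11e-07), per (0.98, adjusted p = 2.67e-07), cwo (0.98, 2.67e-07), Usp8 (0.97, 3.87e-07), CG2681 (0.96, 4.52e-07), Slob (0.95, 4.77e-07), gol (0.92, 1.39e-06) and Sidpn (0.89, 4.35e-06). Their order cannot be read from these values, since the slopes lie within about 1 standard error of each other. Clk had the steepest falling slope (-0.90 ± 0.15, adjusted p = 3.65e-06), ahead of ple-PB (-0.68 ± 0.15, adjusted p = 0.00254) and CG34134 (-0.63 ± 0.15, adjusted p = 0.0103).

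Other genes with large differences in the extremes were not called in the middle crosses. For js the slope was 0.29 ± 0.15 (adjusted p = 0.623), for rdgC it was 0.28 ± 0.15 (adjusted p = 0.652), and for CG10513 it was -0.07 ± 0.15 (adjusted p = 0.951). The bin means of js were -0.50, -0.19, -0.06 and 0.71 from the lowest to the highest bin of timeless, so that most of its difference lay in the last step. Those of CG14855 were -0.43, -0.14, -0.10 and 0.63. For GstZ2 they were 0.53, 0.06, -0.05 and -0.55. In limma, a quadratic term of the timeless score over all crosses was not called for these genes. Its adjusted p was 0.196 for js, 0.0935 for CG14855 and 0.146 for GstZ2, so these bin means do not establish a bend. The slope of js over all crosses was 0.47, beside 0.29 ± 0.15 in the middle crosses.

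Among all profiles called in the extremes, the slope in the middle crosses had the same sign for 533 of the 634 higher (84.1%) and for 79.3% of the 576 lower ones. Among the 7797 profiles not called in the extremes, sign of difference and sign of slope coincided for 58.9%. Ranked by absolute difference, the first 32 profiles (down to 1.30) all had a called slope, and the next, Klp98A (-1.27), had none. The 4 profiles with a called slope but no call in the extremes were those of bumpel (0.60), Tsp5D (0.57), bru2 (-0.60) and CG15611 (-0.55).

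**Figure D3:**
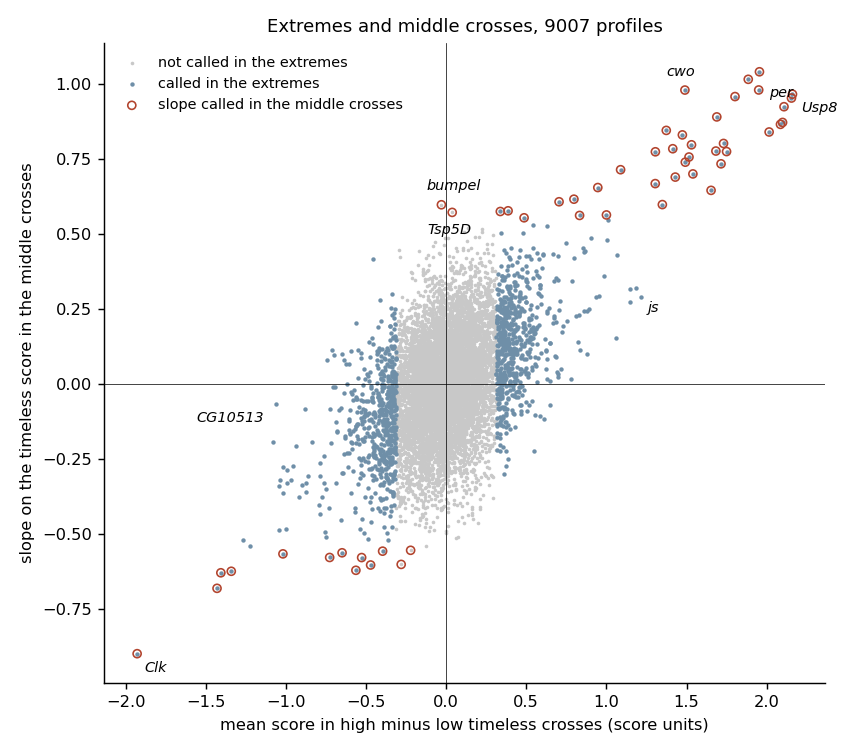
Mean score in high minus low timeless crosses (horizontal axis, score units) against the slope on the timeless score in the middle crosses (vertical axis, score units per unit of timeless) for 9007 profiles. The 52 profiles with a called slope are ringed, and Clk (-1.93 and -0.90) stands apart at the lower left.

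Some profiles had a bent relation to timeless. With the linear term in the fit, limma called a quadratic term of the timeless score over all 596 crosses for 41 of 9007 profiles (0.455%), 25 with a positive (0.278%) and 16 with a negative term (0.178%), and for 1287 at an unadjusted p under 0.05. Among the 25 were 3 subunits of the cytosolic chaperonin (CCT6, CCT7 and CCT8), the co-chaperone Stip1 and Hsp83, the fly Hsp90. The bin means of CCT6, from the lowest to the highest bin of timeless, were 0.12, -0.14, -0.15 and 0.15. Those of Hsp83 were -0.01, -0.07, -0.13 and 0.26. The other chaperone genes named had their highest mean in the lowest bin. The means were 0.16, -0.08, -0.12 and 0.04 for CCT7, and 0.22, -0.03, -0.14 and -0.05 for CCT8. For Stip1 they were 0.20, 0.02, -0.19 and -0.02. Whether chaperone genes were more frequent among the curved profiles than among all profiles was not tested. Among the 16 with a negative term, Fmo-2 had 0.17, 0.16, 0.07 and -0.42, and Acsx3 had 0.38, 0.27, -0.01 and -0.63, so that for these genes the bend lay at the high end. Of the 41 profiles, 9 were also called between the high and low timeless crosses, beside 13.4% of all profiles. With blocks of adjacent line numbers as a covariate the count was 1, and the share of high and low timeless crosses differed between these blocks.

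Few profiles were called between the groups once the other members of the loop were held fixed, in a comparison added after the data were seen. With the scores of per, Clk, cwo and Pdp1-PJ as covariates, and the profiles of these genes left out, 4 profiles were higher (0.0445%) and 2 lower (0.0222%) of 8994, 0.0667% in either direction. The standard errors then were at least 0.278, because the covariates follow the groups closely. The smallest difference called was 1.16 (Stt3A), so smaller ones could hardly be called. Among the 4 were 2 profiles of Slob, with 1.45 for transcripts PJ and PK (adjusted p = 0.00164) and 1.22 for PI (adjusted p = 0.0329). Nup358, another nuclear pore gene, was the third (1.24, adjusted p = 0.0329). Of the 62 called profiles among the named ones that could be tested, 0 kept a call and 11 changed sign. Fitted as a slope on timeless over all 596 crosses with the same covariates, 912 profiles had a rising (10.1%) and 828 a falling slope (9.21%), 19.3% in either direction. Of these, 22.3% and 19.1% were called in the same direction between the groups. There 31 of the 62 named profiles kept their call and direction, and 10 changed sign. Without the covariates, the slope over all crosses was rising for 738 (8.19%) and falling for 717 (7.96%) of 9007 profiles. The fits with covariates describe values at fixed scores of the other clock genes, and no order of action among them was tested.

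Genes that carry the time signal out of the clock neurons were called in both directions. Of 12 measured genes for clock neuropeptides and their receptors, 2 were higher and 2 were lower (16.7% each), beside 7.04% and 6.40% of all profiles. Pdfr, the receptor of the neuropeptide PDF, was higher (0.42 ± 0.12, adjusted p = 0.0052), and so was Dh44-R2, a receptor of diuretic hormone 44 (0.34 ± 0.12, adjusted p = 0.0268). Dh44 itself was lower (-0.33) and so was ITP, the ion transport peptide (-0.35 ± 0.12, adjusted p = 0.0237). The genes of clock output and sleep had 9 higher and 4 lower of 42 profiles (21.4% and 9.52%), and 8 of the 9 were of Slob and of Hk, the beta subunit of the Shaker potassium channel. The 4 profiles of Hk differed by 0.49 to 0.70. The Shaker gene itself, Sh, had 9 profiles with differences from 0.07 to 0.19 and none was called. The GABA receptor gene Rdl was lower in 3 of its 5 profiles, with -0.46 ± 0.12 in the most different one.

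Phototransduction genes moved in both directions. Of 29 photoreceptor profiles, 5 were higher and 4 were lower (17.2% and 13.8%, beside 7.04% and 6.40% of all profiles), with a median difference of 0.13. Besides rdgC, the higher ones were norpA, the phospholipase C of the light response (0.37), and all 3 profiles of rdgA, a diacylglycerol kinase (0.39 to 0.55). The lower ones were the scaffold gene inaD (-0.53 ± 0.12, adjusted p = 1.62e-04), rdgB (-0.42), the chaperone gene ninaA (-0.38) and the ocellar opsin Rh2 (-0.34). The main rhodopsin gene ninaE (0.16, adjusted p = 0.389) and Arr2, the arrestin (-0.20, adjusted p = 0.257), were not called. For rdgC, scores ran from -2.53 to 3.15 (median 0.71) in the high and from -2.81 to 2.20 (median -0.52) in the low timeless crosses, and 11 low ones lay above the median of the high ones. Of 16 profiles of eye pigment genes 4 were higher: 3 of Pu, which encodes GTP cyclohydrolase (0.38 to 0.49), and that of the transporter gene st (0.47 ± 0.12). The transporter genes w (-0.07) and bw (0.10) were not called.

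Genes of biogenic amines had 5 higher and 3 lower of 23 profiles, beside 7.04% and 6.40% of all profiles. Here the steps of dopamine synthesis went in opposite directions: ple was lower, whereas Ddc, the decarboxylase of the next step, was higher (0.42 ± 0.11, adjusted p = 0.00508). The serotonin receptor gene 5-HT2A gave the other 4 higher profiles (0.46 to 0.52), and Vmat, the vesicular transporter, the remaining lower one (-0.32 ± 0.12, adjusted p = 0.048).

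Of the detoxification families, cytochrome P450 genes had 4 higher and 4 lower of 44 profiles and glutathione transferases 4 higher and 3 lower of 25. The P450 shares (9.09% in each direction) lay near those of all profiles (7.04% and 6.40%). In both, the lower members had the larger sizes. After Cyp6a21 came Cyp4aa1 (-0.88 ± 0.11, adjusted p = 3.42e-12) and Cyp317a1 (-0.65 ± 0.11, adjusted p = 1.01e-06), and after GstZ2 came GstD10 (-0.64 ± 0.11) and GstD3 (-0.56 ± 0.11). The higher members stayed between 0.37 and 0.50, among them Cyp12e1 (0.47) and GstO2 (0.50).

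Metabolic and nutrient-signalling lists were short, with 0 to 3 higher and 0 to 2 lower profiles each, beside 7.04% and 6.40% of all profiles. Pdk1 led the insulin list, in which 3 of 19 profiles were higher and 1 was lower. The other higher ones were both profiles of Sik3, a salt-inducible kinase (0.44 and 0.45), and the lower one was Thor, the fly 4E-BP (-0.48 ± 0.11, adjusted p = 7.15e-04). The sugar-responsive factor gene sug was not called (0.06 ± 0.12, adjusted p = 0.796). Glycolytic enzymes had 1 higher of 12 profiles (Hex-C, 0.46 ± 0.12) and purine synthesis 2 higher of 10 (ras, 0.42 ± 0.11, and Nmdmc, 0.40 ± 0.11). Lipid genes had 1 higher and 2 lower of 19, with Acsl at 0.35 ± 0.11 and FASN1 at -0.40 ± 0.11 beside Acsx3.

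Heat shock genes had 1 higher and 3 lower of 14 profiles (7.14% and 21.4%, beside 7.04% and 6.40% of all profiles): DnaJ-1 (0.57 ± 0.12), Hsc70-4 (-0.42 ± 0.11), Hsp23 (-0.37 ± 0.12) and Hsp27 (-0.37). In the list of yolk protein and head fat body genes, 9 of 24 profiles were lower and 0 higher, but 8 of the 9 were transcripts of Sxl, the sex-determination switch gene (-0.46 to -0.32), and the other was takeout (to, -0.36 ± 0.12). Of the yolk protein genes, none was called.

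Markers of other cell types in a sieved head sample were compared in the same way. Of 30 neuronal profiles 3 were lower (10%, beside 6.40% of all profiles) and 0 higher (beside 7.04%), and the median was -0.04. The 3 were those of the sodium channel para (-0.40 ± 0.11), the active zone gene brp in 1 profile (-0.33 ± 0.12) and Vmat in 1 profile. Of 8 glial profiles 1 was higher (12.5%, beside 7.04% of all profiles), that of moody (0.36 ± 0.11), with a median of 0.05. Of 49 muscle profiles 1 was lower (2.04%, beside 6.40% of all profiles), that of TpnC73F (-0.39 ± 0.12). None of the 5 profiles of gut enzymes, 2 of antimicrobial peptides, 2 of testis genes and 1 of chorion and ovary genes was called. In a whole head, fewer cells of a type and less RNA per cell cannot be told apart. The authors had regressed 10 principal components out of the scores, and what these held of tissue content was not tested.

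**Figure D4:**
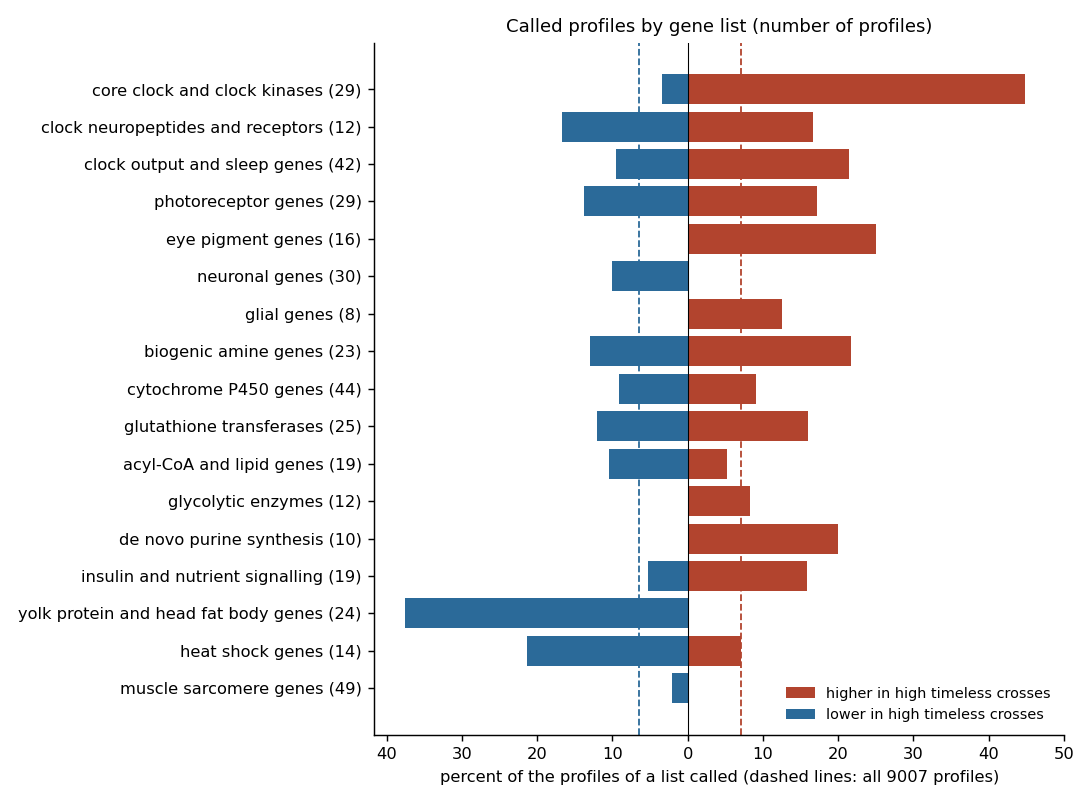
Percent of the profiles of each gene list called higher (to the right) or lower (to the left) in high timeless crosses, for lists with at least 8 profiles, with the number of profiles in brackets and the share over all 9007 profiles as dashed lines (7.04% and 6.40%). The clock list had the highest share in the higher direction (44.8% of 29 profiles, 10 of them of Pdp1), and the fat body list in the lower direction (37.5% of 24, 8 of them of Sxl).

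Some genes beside timeless on chromosome arm 2L differed as well. Among the 25 genes on each side, 14 profiles of 11 genes were measured, and 7 of them (50%) were called, 2 higher and 5 lower, beside 13.4% of all profiles. At 26 to 50 places 3 of 19 profiles were called (15.8%), at 51 to 100 places 6 of 52 (11.5%) and beyond 100 and up to 200 places 18 of 120 (15%). Thor lies 2 places from timeless. Its scores ran from -2.64 to 2.01 (median -0.24) in the high and from -1.63 to 2.64 (median 0.28) in the low timeless crosses. The other called neighbours were CG15418 (0.55 ± 0.12), CG12795 (0.42 ± 0.12), the homeobox gene Drgx (-0.49 ± 0.11), CG8852 (-0.43 ± 0.12), the sorting nexin gene Snx1 (-0.36 ± 0.11) and CG3246 (-0.33 ± 0.10). CG15414, the nearest measured neighbour, was not called (-0.20 ± 0.11, adjusted p = 0.278), and neither were CG17593 (0.27 ± 0.12) and the Golgi gene Cog3 (-0.02 ± 0.11). Neighbouring genes are inherited together, so variants at a neighbour and variants at timeless cannot be told apart here.

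**Figure D5:**
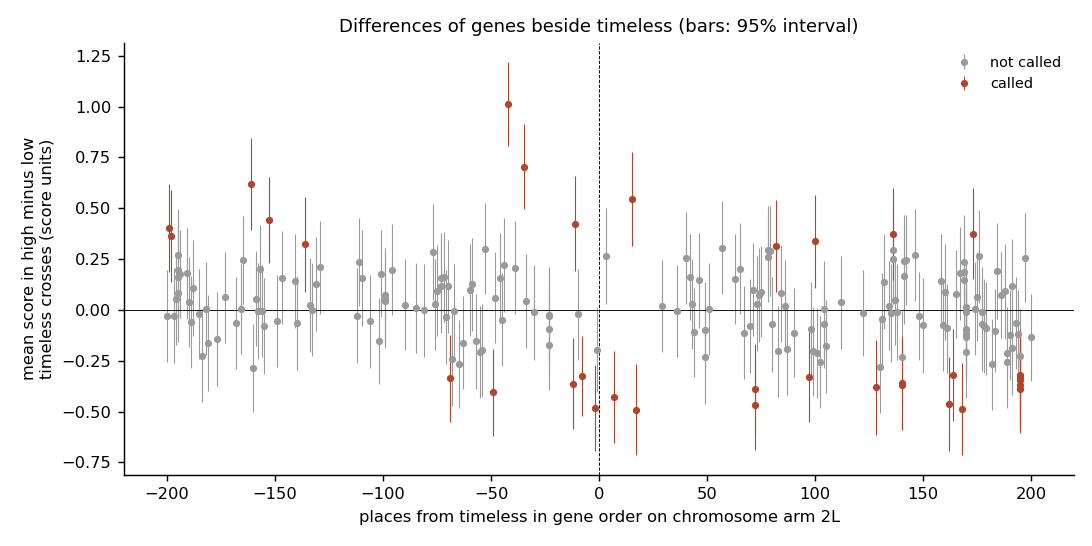
Mean score in high minus low timeless crosses (vertical axis, score units, with 95% interval) of the profiles measured within 200 places of timeless in the gene order of chromosome arm 2L (horizontal axis), with called profiles in red. The largest difference in the range is that of Hydr2 (1.01), followed by that of CG9664 (0.70).

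Elsewhere in the genome, the share of higher profiles was 8.97% on arm 3R and 5.74% to 7.24% on 2L, 2R, 3L and X, and the share of lower profiles was 5.22% on 3R and 6.47% to 7.65% on the other 4 arms. On the small chromosome 4 the shares were 1.92% and 4.81%. The genes with the largest differences were themselves spread out, with per on X, Clk and Pdp1 on 3L, Usp8 and cwo on 3R, and Dyrk2 and Slob on 2L, the arm of timeless.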

How the data were processed

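RNA of about 300 female heads per cross (per the labels) was hybridised to NimbleGen arrays that each held several of the 596 crosses. The authors background corrected and quantile normalized the arrays and combined probes into transcripts by RMA (oligo package in R), leaving out probes with several sequence variants and those with a single variant that affected the measurement. They deposited a score without a physical unit. To make it, they turned each transcript into normal quantiles, regressed out the subpopulation together with 10 principal components, and turned what remained into normal quantiles once more. Expression levels and their spread are not kept, and the number of crosses limits the precision.

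Here crosses were ranked by CG3234, and the 149 highest were compared with the 149 lowest (298 between). The profiles were compared with limma 3.58.1 (R 4.3.3), two-sided, with Benjamini-Hochberg adjustment over 9007 profiles, and tabulated with Python 3.11.15. Since all rows have nearly the same variance, limma gave each profile the same standard error of the difference (0.116). The printed standard errors and 95% intervals of differences are therefore those of each profile's own spread (0.0741 to 0.128). Standard errors of slopes and of the fits with covariates are those of limma. The fit was checked on simulated data with independent profiles, so the check does not cover correlation between profiles. Subpopulations were told apart by the labels, and blocks hold adjacent line numbers. Symbols and gene order came from the RefSeq gene table of assembly Release 6, in which 7405 of 7422 genes matched. 0 columns were left unused.

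Genes named are the 12 largest differences in each direction with the same sign in both kinds of cross, the core clock, genes named in earlier work on these data, up to 3 called members of each list, and the 10 places on each side of timeless. Any other gene was added for its values. The members and lists were chosen with earlier results of these data known. The alternatives were other covariates, group sizes, tests, further components and row sets.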

Additional observations from a re-analysis of the deposited data

How the results depend on the processing

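The shares of profiles called higher and lower (7.039% and 6.395% of those tested) stayed within 1.5 times of their values under the alternatives named here, from 5.118% to 8.194% and from 4.274% to 7.960%, except in the pA2xpB1 crosses alone (1.499% and 1.499%). The interaction share of 0 became 0.01110% (1 profile, of peb) with line-number blocks. The share with a slope in the middle crosses (0.5773%) became 0.8882% with 10 further components removed, and 0.4115% (30 of 7290) with one profile per gene. The share of curved relations (0.4552%) became 0.01110% with line-number blocks, 0.2998% with 10 and 0.07772% with 5 further components removed. Of the 66 called profiles among the 80 named, 66 kept their direction and 35 also kept their call under the same alternatives. The fits with clock genes as covariates are an exception, with 11 of 62 turned in sign and 0 calls kept between the groups, and 10 turned and 31 kept as a slope. The 29 calls lost in the pA2xpB1 crosses alone, with 55 high and 53 low timeless crosses, were the most in any alternative. Under those alternatives signs turned only in uncalled genes. In the pA2xpB1 crosses alone dco was -0.0225, wdb 0.0113, sug -0.2143 and Cog3 0.0958. With 60 against 60 crosses CkIIalpha was -0.1234, CkIIbeta -0.0558, slmb 0.2510, wdb 0.0905 and Cog3 0.0782. With the highest 50% against the lowest 50%, cyc was -0.0052 and dco -0.0189. With 10 further components removed cyc was -0.1385 and Cog3 0.0964, and with 5 cyc was -0.0153, wdb 0.0020 and Cog3 0.1791. With line-number blocks wdb was 0.0221 and Cog3 0.0160, with subpopulation as a covariate wdb was 0.0021, and as a slope over all crosses wdb was 0.0186. The cause of these changes was not tested. Leaving out 6 crosses with a median beyond 0.2 of 0 (6.895% and 6.584%) and a test with the variance of each profile alone (6.961% and 6.428%) were chosen after seeing the data. Replicate crosses were numbered in accession order. No paired analysis was possible because these numbers pair no crosses. Scores without levels limit every value to an order among crosses.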

Other observations

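Of 810 genes with several profiles, 23.8% had a called profile, and 74 genes had all of theirs called in one direction. Among all 7247 genes, 7.13% had a higher and 6.25% a lower profile. A gene with several profiles is tested several times, so these shares are not alike. In 1 gene, M7BP, profiles were called in opposite directions, with 0.45 ± 0.11 (adjusted p = 0.00189) for transcript PO and -0.32 ± 0.12 (adjusted p = 0.0473) for transcripts PA, PD, PF, PH and PQ, while its other 2 profiles were not called (-0.05 and 0.13).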
